A study of Homo sapiens with 5 samples.

Results

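IGF2, the gene whose intron hosts the microRNA gene MIR483, was followed together with the genes of the imprinted region of chromosome arm 11p15 around it, in Ewing sarcoma cells given mimics of the microRNAs miR-483-5p or miR-483-3p. The members were IGF2, INS-IGF2, H19, KCNQ1OT1, CDKN1C, SLC22A18 and PHLDA2, and every probe set that the platform annotation lists for any of them was taken, probe sets shared between genes included. This gave 19 of the 54675 probe sets of the array for the 7 genes. SLC22A18 is listed under its newer symbol, SLC67A1. The 3 IGF2 probe sets are also listed for INS-IGF2, a readthrough gene that joins the insulin gene INS to IGF2, and both H19 probe sets are also listed for MIR675, so the 2 genes of each pair could not be told apart in these 5 probe sets.

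The cells were MHH-ES-1, an established Ewing sarcoma line grown in medium with 5% serum. They were transfected by a lipid reagent with a miR-483-5p mimic (2 arrays), a miR-483-3p mimic (1 array) or a scrambled control mimic (2 arrays), each at 50 nM, and RNA was taken 48 hours later. All groups therefore share the transfection and an added small RNA, and all come from 1 cell line. The second miR-483-5p and control arrays are called repeats in the labels, which do not say that they came from separate cultures, so the p-values here measure the spread between arrays, which may be technical.

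Genes of this region are imprinted, which means that only the copy inherited from 1 parent is active. IGF2 encodes a fetal growth factor and is expressed from the paternal copy, while H19, a noncoding RNA next to it, is expressed from the maternal copy, and a control region between them sets which is active on each chromosome. A separate control region further along directs the noncoding RNA KCNQ1OT1, which is transcribed from the paternal copy and keeps CDKN1C, PHLDA2 and SLC22A18 silent there. Abnormal imprinting here is known from Beckwith-Wiedemann syndrome and embryonal tumours, and IGF2 is a growth signal in Ewing sarcoma cells.

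Within the region, H19 also hosts a microRNA gene, and its probe sets are listed for that microRNA gene as well. The second name on the H19 probe sets refers to the gene MIR675, and not to its mature products. These products are shown with the seed (bases 2 to 8) in capitals, and no value here is specific to them. The sequences are those of RefSeq, build GRCh38.p14.
hsa-miR-675-5p: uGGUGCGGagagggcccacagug
hsa-miR-675-3p: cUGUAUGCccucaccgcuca
They lie at chr11:1996800-1996822 for the 5p product and at chr11:1996768-1996787 for the 3p product, both on the minus strand. The seed of hsa-miR-675-5p is shared with 1 other of the 2545 mature human microRNAs in the table, hsa-miR-4466, and that of hsa-miR-675-3p with 0 others.

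The start region of INS-IGF2 is shown because every IGF2 probe set carries this second name. It belongs to the readthrough gene and is not a start region of IGF2 itself. It spans 250 bases before to 50 bases after the gene start (chr11:2161160-2161459, minus strand), and the capitals mark the only TATAAA in it on the gene's strand.
INS-IGF2 start region: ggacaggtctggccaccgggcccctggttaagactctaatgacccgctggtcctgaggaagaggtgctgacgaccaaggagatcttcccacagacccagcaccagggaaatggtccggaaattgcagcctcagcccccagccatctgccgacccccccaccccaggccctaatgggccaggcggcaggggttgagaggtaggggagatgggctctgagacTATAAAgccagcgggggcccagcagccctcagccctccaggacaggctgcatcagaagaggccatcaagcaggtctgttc
The motif begins 30 bases before the gene start, and it does not occur on the opposite strand of this window. TATAAA is found on the gene's strand in 7.33% of 35116 windows of this length and on either strand in 11.5% of them. The H19 window of the same length (chr11:2001217-2001516, minus strand) does not hold these letters on either strand.

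The arrays were alike in brightness, with medians of 39.2 to 44.9 intensity units over all probe sets. Across probe sets on the log2 scale, arrays correlated at 0.979 within miR-483-5p, 0.981 within control and 0.975 to 0.980 between groups. Of 12 Ewing sarcoma genes, 11 had a probe set of their own, and all 11 lay above the median probe set, with summed signals of 22205.3 to 24882.4 on the 5 arrays. Of 7 epithelial marker genes, 1 lay above the median, and their summed signals were 135.7 and 123.7 on the miR-483-5p arrays, 139.9 on the miR-483-3p array, and 200.5 and 162.9 on the control arrays. Of 10 fibroblast marker genes, 8 lay above the median, with summed signals of 4518.9 and 4469.6 on the miR-483-5p arrays, 3753.6 on the miR-483-3p array, and 4670.8 and 4695.8 on the control arrays. The part of either list in the results was not tested. RNA was measured in bulk, so fewer expressing cells and less RNA per cell cannot be told apart.

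The IGF2 probe sets had the highest signals on both miR-483-5p arrays. Over control, the means stood 2.10 to 7.45 times as high, and all 3 probe sets gave the same order of groups. Neither these nor any other probe set on the array passed an adjusted p of 0.05 in limma across all 54613 probe sets tested, so these are differences in signal that did not pass the test.

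Probe set 202409_at read 469.8 and 355.6 intensity units on the miR-483-5p arrays, 236.1 on the miR-483-3p array, and 189.2 and 204.7 on the control arrays. Both miR-483-5p arrays were above all others, and the lower of them was 1.74 times the higher control array. The means were 413 ± 80.8 for miR-483-5p and 197 ± 10.96 for control (SD, n = 2 each), a ratio of 2.10. On the scale of log2(intensity + 32), used for all differences that follow, miR-483-5p minus control was 0.95 (SE 0.17, 95% interval 0.50 to 1.39), with an adjusted p of 0.621 in limma.

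At 202410_x_at, a probe set whose suffix marks probes that may also bind other sequences, the signals were 108.4 and 86.1 on the miR-483-5p arrays, 16.6 on the miR-483-3p array, and 13.3 and 12.8 on the control arrays. The miR-483-3p and control arrays lay close together, and the lower miR-483-5p array was 6.47 times the higher control array. With means of 97.2 ± 15.8 for miR-483-5p and 13.1 ± 0.354 for control (SD, n = 2 each), the ratio was 7.45 and the log2 difference 1.52 (SE 0.14, 95% interval 1.15 to 1.88). Its unadjusted p of 0.000199 in limma's fit across all genes was rank 1 of the 54613, and its log2 difference was the 3rd highest, with an adjusted p of 0.621.

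Signals of 71.2 and 55.0 on the miR-483-5p arrays, 13.3 on the miR-483-3p array, and 9.4 and 13.6 on the control arrays were read at 210881_s_at, whose suffix marks probes common to several transcripts. Here too both miR-483-5p arrays stood clear of the other 3, while the miR-483-3p array fell between the control arrays. The means were 63.1 ± 11.5 for miR-483-5p and 11.5 ± 2.97 for control (SD, n = 2 each), with a ratio of 5.49. The log2 difference was 1.12 (SE 0.14, 95% interval 0.74 to 1.51, adjusted p = 0.621 in limma). It was the 20th highest difference and rank 32 by unadjusted p.

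The 32 units added before the logarithm shrink differences between low signals, so the log2 values of 202410_x_at and 210881_s_at understate their ratios. On the control arrays 202410_x_at exceeded 24.9 and 24.3 percent of the probe sets of the array and 210881_s_at 19.5 and 25.3 percent. On the miR-483-5p arrays they exceeded 70.7 and 65.2 percent (202410_x_at) and 63.6 and 54.9 percent (210881_s_at). Whether the control signals of these probe sets lay above background was not tested, since the values carry no detection calls. At 202409_at, which exceeded 89.4 and 86.7 percent on the miR-483-5p arrays, 81.2 percent on the miR-483-3p array, and 78.1 and 79.4 percent on the control arrays, the signal was in the upper range throughout.

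The 2 miR-483-5p arrays differed among themselves in the same direction at all 3 probe sets, array 1 being higher than array 2 by 0.37 (202409_at), 0.25 (202410_x_at) and 0.25 (210881_s_at) on the log2 scale. The gap between the control arrays, array 1 minus array 2, was -0.10, 0.02 and -0.14 in the same order. Each log2 difference between miR-483-5p and control exceeded these gaps. The 3 probe sets read transcripts of the same gene from the same 5 RNA samples and do not count as repeats of the measurement. The ratio of 3' to 5' signal of GAPDH, a measure of how complete the RNA or its labelled copy is, was 1.09 and 1.10 on the miR-483-5p arrays, 1.06 on the miR-483-3p array, and 1.02 and 0.996 on the control arrays. The GAPDH ratio ran in the same order of groups as IGF2. For ACTB, the ratio was 1.182 and 1.073 on the miR-483-5p arrays and 1.093 on the miR-483-3p array. On the control arrays it was 1.065 and 1.040, so miR-483-5p array 2 was below the miR-483-3p array at ACTB. The part of either ratio in the IGF2 result was not tested.

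**Figure D1:**
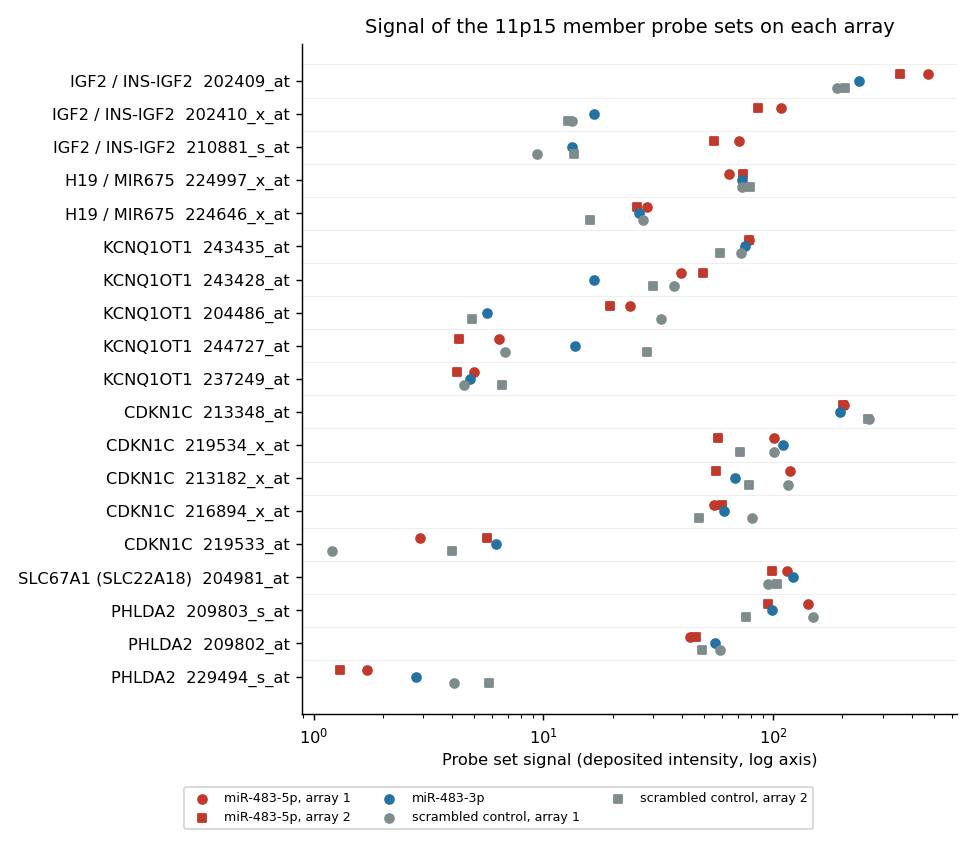
Deposited signal (horizontal log axis, intensity units) of each of the 19 member probe sets (rows), with 1 point for each of the 5 arrays. At the 3 IGF2 rows both miR-483-5p arrays lie to the right of every other array, by 1.74 to 6.47 times over the higher control array, while at most other rows the arrays lie close together or overlap.

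With 1 array, miR-483-3p has no spread of its own, and its differences borrow the spread of the groups with 2 arrays. Minus control, they were 0.23 (95% interval -0.32 to 0.78) at 202409_at, 0.11 (-0.34 to 0.56) at 202410_x_at and 0.06 (-0.41 to 0.53) at 210881_s_at, with limma adjusted p-values of 0.941, 0.985 and 0.9996. These intervals include 0 but do not show that miR-483-3p left IGF2 as in control.

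The 2 mimics, which stand for the 2 arms of the MIR483 hairpin, were at the same dose and time and were compared directly, 2 arrays against 1. Minus miR-483-3p, miR-483-5p was higher by 0.72 (SE 0.21, 95% interval 0.17 to 1.27) at 202409_at. The same difference was 1.41 (SE 0.17, 95% interval 0.96 to 1.85) at 202410_x_at, rank 4 by unadjusted p. It was 1.06 (SE 0.18, 95% interval 0.59 to 1.53) at 210881_s_at. None passed in limma, each with an adjusted p of 0.784, which was also the lowest adjusted p of any probe set in this comparison. This comparison and that with control use the same miR-483-5p arrays and are not independent.

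INS and IGF2-AS, which come after IGF2 in RefSeq order, on the side away from H19, had signals below the array median. Chosen for their position after their values were seen, INS (206598_at), the insulin gene, read 4.3 and 2.1 on the miR-483-5p arrays, 6.7 on the miR-483-3p array, and 2.8 and 2.7 on the control arrays. IGF2-AS (220561_at), transcribed antisense to IGF2, read 11.6 and 10.4 on the miR-483-5p arrays, 14.5 on the miR-483-3p array, and 15.1 and 11.6 on the control arrays. The miR-483-5p and control arrays overlapped at INS and touched at IGF2-AS, with log2 differences of 0.02 and -0.08. The miR-483-3p array was the highest of the 5 at INS, and at IGF2-AS it was above both miR-483-5p arrays and between the control arrays.

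H19, the maternally expressed noncoding RNA next to IGF2, showed no difference beyond the spread. Both its probe sets have the x_at suffix, so their probes may also bind other sequences. Probe set 224997_x_at read 63.9 and 74.0 on the miR-483-5p arrays, 72.8 on the miR-483-3p array, and 73.2 and 79.4 on the control arrays. The miR-483-5p and control arrays overlapped, and the log2 difference was -0.10 with a 95% interval of -0.43 to 0.22. At 224646_x_at the signals were 28.1 and 25.5 on the miR-483-5p arrays, 26 on the miR-483-3p array, and 27.0 and 15.9 on the control arrays, with a log2 difference of 0.15 (95% interval -0.25 to 0.54). Control array 2 was the low array there. For miR-483-3p minus control the H19 differences were -0.05 and 0.13, and for miR-483-5p minus miR-483-3p -0.06 and 0.02, in the same order.

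KCNQ1OT1, the paternally expressed noncoding RNA of the second control region, had 5 probe sets. The one with the highest mean, 243435_at, read 78.8 and 78.7 on the miR-483-5p arrays, 75.6 on the miR-483-3p array, and 72.5 and 58.9 on the control arrays. Both miR-483-5p arrays were above both control arrays, by 0.18 on the log2 scale. At 243428_at the signals were 39.8 and 49.7 on the miR-483-5p arrays, 16.6 on the miR-483-3p array, and 36.9 and 30.1 on the control arrays. Both miR-483-5p arrays were again above both control arrays, the miR-483-3p array was the lowest of the 5, and miR-483-5p minus miR-483-3p was 0.66 (SE 0.17, 95% interval 0.22 to 1.10), which did not pass in limma (adjusted p = 0.784). The other 3 KCNQ1OT1 probe sets lay at or below 32.4 on every array, and the miR-483-5p and control arrays overlapped in 204486_at and 237249_at. Of these, 204486_at read 32.4 and 4.9 on the control arrays and 244727_at 6.8 and 28.1, so that the control arrays stood 0.80 and -0.63 apart (array 1 minus array 2, log2). In both, the gap between the control arrays was larger in size than the difference between miR-483-5p and control, 0.14 and -0.37 in the same order.

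CDKN1C encodes the cyclin-dependent kinase inhibitor p57, a brake on the cell cycle. The probe set with the highest mean, 213348_at, read 204.1 and 200.9 on the miR-483-5p arrays, 195.2 on the miR-483-3p array, and 260.4 and 257.7 on the control arrays. All 3 microRNA arrays were below both control arrays, and the arrays within each pair lay close together. The log2 difference from control was -0.31 for miR-483-5p (SE 0.11, 95% interval -0.60 to -0.02, limma adjusted p = 0.648) and -0.36 for miR-483-3p (adjusted p = 0.794). Both use the same control arrays. Between the mimics the difference was 0.05 (95% interval -0.31 to 0.40).

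In the other 4 CDKN1C probe sets the miR-483-5p and control arrays overlapped. At 213182_x_at the signals were 118.6 and 56.2 on the miR-483-5p arrays, 68.0 on the miR-483-3p array, and 115.9 and 78.5 on the control arrays. At 219534_x_at they were 101.1 and 57.5 on the miR-483-5p arrays, 110.7 on the miR-483-3p array, and 101.1 and 71.7 on the control arrays. The arrays of one group lay 0.77 and 0.57 apart within miR-483-5p and 0.42 and 0.36 apart within control (log2), more than the groups differed. The miR-483-5p minus control differences of these 2 and of 216894_x_at were -0.15, -0.11 and -0.08, and that of 219533_at, which stayed at or below 6.2 on every array, was 0.07.

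SLC22A18, a membrane transporter gene of the same domain, read 114.3 and 98.5 on the miR-483-5p arrays, 122.2 on the miR-483-3p array, and 95.2 and 104.1 on the control arrays at its single probe set, 204981_at. The miR-483-5p and control arrays overlapped, with a log2 difference of 0.07 (95% interval -0.27 to 0.41). The miR-483-3p array was the highest, 0.23 above control.

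PHLDA2, which encodes a small protein that restrains placental growth in mice, read 141.4 and 94.5 on the miR-483-5p arrays, 98.6 on the miR-483-3p array, and 149.3 and 75.9 on the control arrays at 209803_s_at. The arrays lay 0.45 apart within miR-483-5p and 0.75 apart within control, against a difference of 0.08 between these groups. At 209802_at the signals were 43.5 and 46.3 on the miR-483-5p arrays, 55.8 on the miR-483-3p array, and 58.4 and 48.9 on the control arrays. Both miR-483-5p arrays were the lowest of the 5, with a log2 difference of -0.15 from control. The last, 229494_s_at, did not exceed 5.8 on any array, and both miR-483-5p arrays were below both control arrays there too (-0.14).

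**Figure D2:**
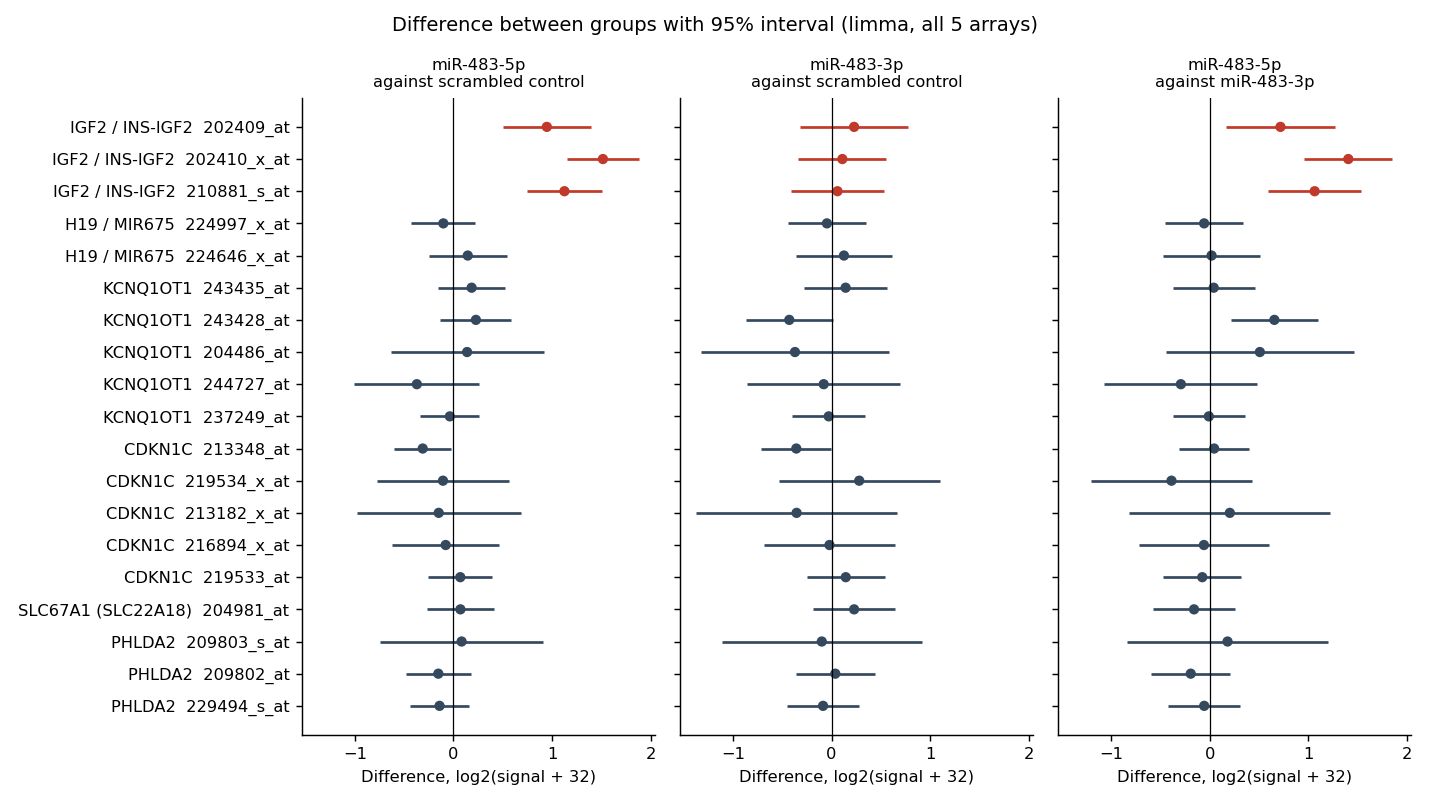
Log2 differences of the 19 member probe sets (rows) in the 3 comparisons (panels), on the scale of log2(intensity + 32), with 95% intervals from the fit. In the panel of miR-483-5p against scrambled control the IGF2 rows stand at 0.95 to 1.52 and the other 16 rows between -0.37 and 0.23.

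Over all 19 member probe sets, limma called 0 in each of the 3 comparisons, where 0% of all probe sets were called. The lowest adjusted p over all probe sets was 0.621 for miR-483-5p against control and 0.778 for miR-483-3p against control. At an unadjusted p under 0.05, miR-483-5p against control gave 4 of the 19, beside 7.68% of all probe sets. They were the 3 IGF2 probe sets as higher, beside 3.63% of all, and 213348_at of CDKN1C as lower, beside 4.05% of all. For miR-483-3p against control it was 1, the same CDKN1C probe set as lower, beside 6.29% of all probe sets in either direction and 3.54% lower. For miR-483-5p against miR-483-3p it was 4 higher and 0 lower, beside 6.28% of all probe sets, 3.15% higher and 3.13% lower. These were the 3 IGF2 probe sets and 243428_at of KCNQ1OT1.

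Without regard to any test, both miR-483-5p arrays were above both control arrays in 5 of the 19 probe sets, against 16.1% of all probe sets, and below both in 4, against 20.5% of all, which together is 36.6% of all probe sets. In the other 10 the arrays overlapped. The single miR-483-3p array lay above both control arrays in 6 (32.9% of all probe sets) and below both in 5 (34.4% of all). Either way, this made 11 of 19, beside 67.3% of all probe sets. Both miR-483-5p arrays lay above the miR-483-3p array in 7 (31.3% of all) and below it in 7 (34.7% of all), together 14 of 19 beside 66.0% of all probe sets. An ordering of this kind is common over the whole array and is not in itself a result about these genes. With 2 arrays against 2, an exact permutation test could not give a two-sided p under 0.333.

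The 16 member probe sets that are not IGF2's had a median log2 difference of -0.06 for miR-483-5p minus control and -0.04 for miR-483-3p minus control. The medians over all probe sets were -0.02 and -0.01.

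**Figure D3:**
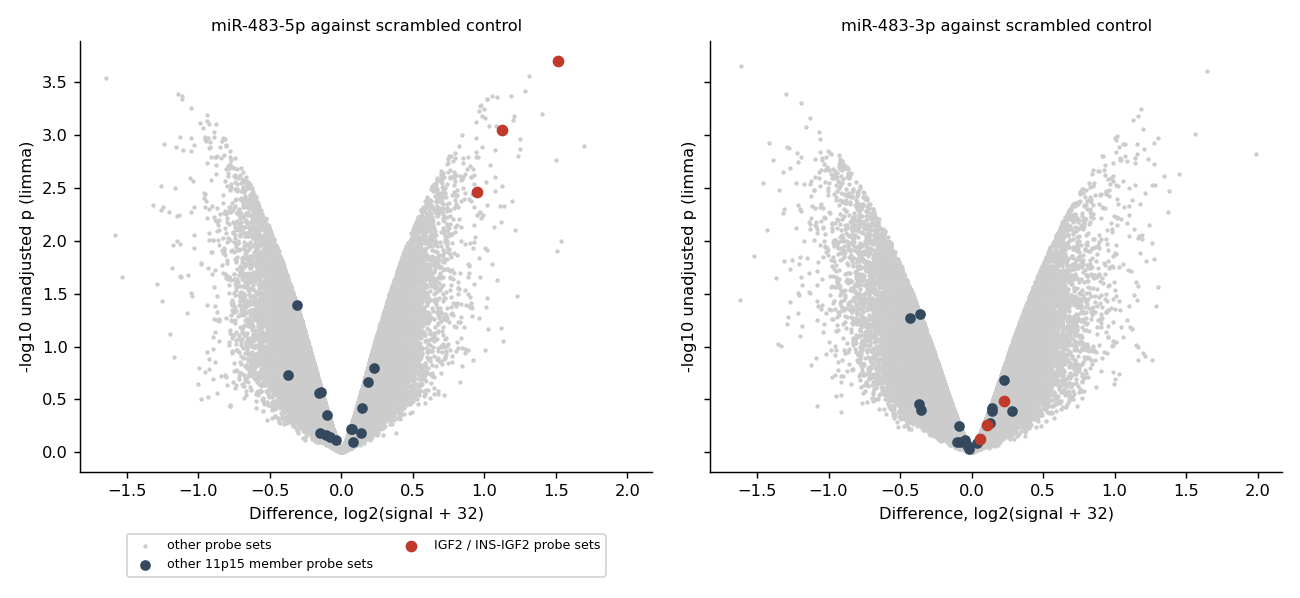
Log2 difference (horizontal) against the -log10 of the unadjusted limma p (vertical) for all 54613 probe sets, members marked, for miR-483-5p (left panel) and miR-483-3p (right panel) against scrambled control. In the left panel the IGF2 probe sets lie at the right of the cloud at 0.95 to 1.52, 202410_x_at with the lowest p of all, and in the right panel they lie within it at 0.06 to 0.23.

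In RefSeq order, 32 genes run from H19 to PHLDA2, and 20 of them had a probe set here, with the shared probe sets counted once, under IGF2 and H19. They carried 37 probe sets. Outside IGF2, the other 34 had log2 differences between miR-483-5p and control of -0.37 to 0.37, with a median of -0.08, against 0.95 to 1.52 at IGF2. 

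**Figure D4:**
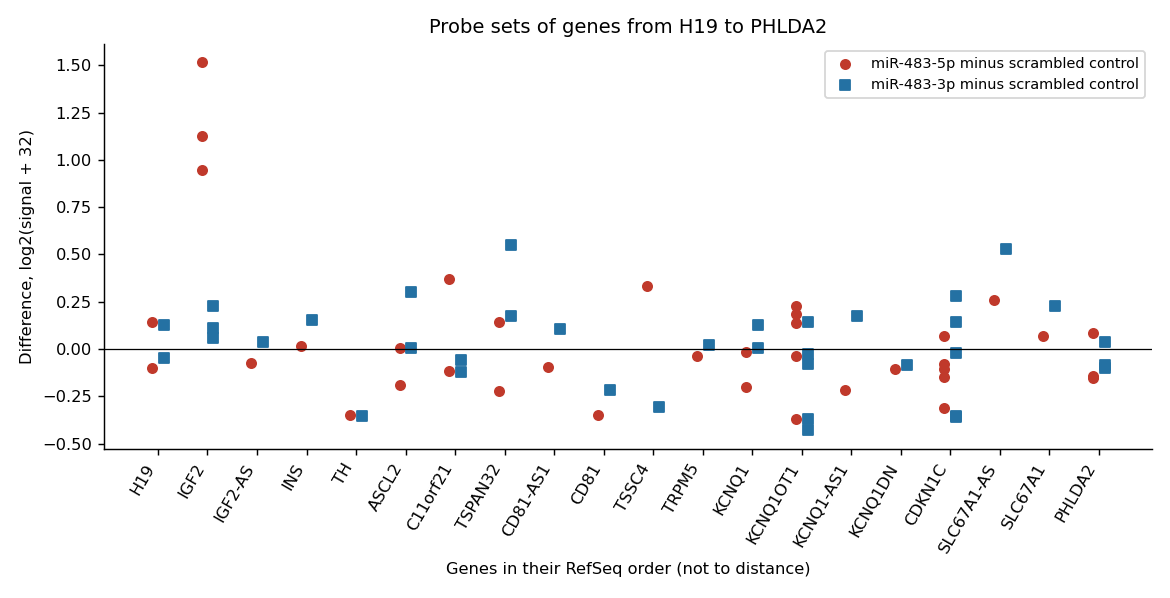
Log2 difference from scrambled control (vertical) of each probe set of the genes from H19 to PHLDA2, placed in RefSeq gene order (horizontal), for miR-483-5p (circles) and miR-483-3p (squares). The 3 IGF2 circles stand at 0.95, 1.12 and 1.52, and the 34 other circles lie between -0.37 and 0.37.

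Other genes of the imprinted domain were taken from a list of 15, of which 14 had a probe set of their own. Limma called 0 of the 14 against control for either mimic. At an unadjusted p under 0.05, miR-483-5p gave 0 higher and 2 lower, beside 3.63% and 4.05% of all probe sets. Here and in the lists that follow, each gene counts by 1 probe set, the one with the highest mean. The shares of all probe sets include dim ones, so the bases differ. The median log2 difference was -0.08, beside -0.01 over all genes. It turned to 0.06 with probe sets under the 40th percentile left out and was -0.02 with those under the 60th left out. The 4 with the lowest p were TH, CD81, CARS1 and SLC67A1-AS. CD81, a tetraspanin of the cell surface, read 2826.2 and 2569.9 on the miR-483-5p arrays, 2955.1 on the miR-483-3p array, and 3279.2 and 3596.9 on the control arrays. The miR-483-5p arrays were below both control arrays, with a log2 difference of -0.35 (limma adjusted p = 0.650). TH, the first enzyme of dopamine synthesis, also had a log2 difference of -0.35, at signals of 4.0 and 1.7 on the miR-483-5p arrays, 2.7 on the miR-483-3p array, and 14.4 and 10.4 on the control arrays. CARS1, a tRNA ligase gene, was 0.24 above control, with -0.10 to 0.20 at its other probe sets, and SLC67A1-AS 0.26.

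Genes that flank the domain on 11p15 and are not known to be imprinted served as a local comparison, 26 of 26 of them measured. Limma called 0 of the 26 for miR-483-5p, with 0 higher and 3 lower at an unadjusted p under 0.05, beside 3.63% and 4.05% of all probe sets. The median was -0.10, beside -0.01 over all genes, and the list's level differed by 0.07 and -0.09 within the miR-483-5p and control pairs (array 1 minus array 2). TOLLIP, an adaptor of innate immune signalling, had a log2 difference of -0.52, but its other 3 probe sets gave 0.63, -0.06 and -0.38. IFITM1, an interferon-induced membrane protein gene, had a difference of -0.42 and POLR2L, an RNA polymerase subunit gene, of -0.33. RPLP2, a ribosomal protein gene, was higher by 0.36, against -0.04 at its other probe set. None of these passed the test.

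Imprinted genes elsewhere in the genome, 38 of 44 measured, had a median of 0.10 for miR-483-5p minus control and of 0.05 for miR-483-3p minus control. Limma called 0, with 2 higher and 0 lower at an unadjusted p under 0.05 for miR-483-5p, beside 3.63% and 4.05% of all probe sets, a share near the background. Those with the lowest p were INPP5F (0.37), GRB10 (0.32), BLCAP (0.41) and NDN (-0.28). GRB10, an adaptor that dampens insulin and IGF receptor signalling, read 736.0 and 672.7 on the miR-483-5p arrays, 615.6 on the miR-483-3p array, and 538.2 and 574.6 on the control arrays. Its control arrays were the lowest of the 5, and its other probe sets gave 0.09, 0.37 and 0.18, while those of INPP5F gave -0.14 and 0.04.

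Genes known to act on IGF2 or on imprinted loci formed a list of 40, of which 38 were measured. Limma called 0 of them. At an unadjusted p under 0.05, 6 were higher and 1 lower with miR-483-5p, beside 3.63% and 4.05% of all probe sets. Those shares are not over the brightest probe set of each gene, as the list is, so no enrichment can be read from them. The median was 0.11, and the list's level differed by 0.11 between the miR-483-5p arrays themselves. HMGA2, a chromatin protein gene that promotes IGF2 expression in development, read 599.6 and 492.2 on the miR-483-5p arrays, 204.8 on the miR-483-3p array, and 293.6 and 248.4 on the control arrays. As at IGF2, both miR-483-5p arrays were above the rest, by 0.93 over control (SE 0.16, limma adjusted p = 0.621), while the miR-483-3p array was the lowest, with a difference of -0.35 from control. The other 8 HMGA2 probe sets gave -0.06 to 0.53 for miR-483-5p minus control. EGR1, a growth-induced transcription factor, read 129.7 and 134.3 on the miR-483-5p arrays, 84.0 on the miR-483-3p array, and 343.2 and 303.9 on the control arrays. All 3 microRNA arrays were below both control arrays there. The log2 difference from control was -1.11 for miR-483-5p (SE 0.12, limma adjusted p = 0.621) and -1.61 for miR-483-3p (adjusted p = 0.778), with shared control arrays. Its other probe sets gave -0.18 and -0.49 for miR-483-5p. TET2, which oxidises methylated cytosine, was higher by 0.53 with miR-483-5p and by 0.46 with miR-483-3p. Its other probe sets gave -0.05 and -0.23 for miR-483-5p. SMC3, a cohesin subunit, was higher by 0.65 with miR-483-5p and by 0.52 with miR-483-3p. Its other probe sets gave 0.15, -0.02 and 0.19 for miR-483-5p. DHX9, an RNA helicase named here because it has been reported to bind IGF2 transcripts, and not by rank, read 1822.3 and 1821.5 on the miR-483-5p arrays, 1708.7 on the miR-483-3p array, and 1404.2 and 1554.1 on the control arrays. Its difference was 0.30 (limma adjusted p = 0.664), and its other probe sets gave -0.21 and -0.52, so the DHX9 probe sets disagree in direction.

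The IGF axis itself, its receptors and the binding proteins that hold IGF2 in the fluid outside cells, was measured at 19 of 19 listed genes. Limma called 0 of them. At an unadjusted p under 0.05, 4 were higher and 1 lower with miR-483-5p, beside 3.63% and 4.05% of all probe sets, again an unlike base. GRB10 is among the 4, by the same probe set already counted among the imprinted genes elsewhere. The median was 0.19 for miR-483-5p and 0.01 for miR-483-3p. The list's level differed by 0.19 between the miR-483-5p arrays themselves, as much as the median. IGFBP3, the main carrier of IGF in blood, read 493.4 and 411.3 on the miR-483-5p arrays, 506.8 on the miR-483-3p array, and 709.4 and 667.0 on the control arrays. All 3 microRNA arrays were below both controls, with a log2 difference of -0.58 for miR-483-5p (SE 0.14, limma adjusted p = 0.621), and another IGFBP3 probe set gave -0.89. IGFBP6 was higher by 0.44, IGFBP5 by 0.47 and IGFBP7 by 0.33. The other 5 IGFBP5 probe sets gave -0.25 to 0.38 and the other 2 of IGFBP7 0.02 and -0.14. At the named probe sets each of these had both miR-483-5p arrays above both control arrays, as had 8 of the 19 listed genes and 16.1% of all probe sets. They were named for their low p in this same comparison, so that ordering is no further result. None passed the test.

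The probe sets most like IGF2 over the 5 arrays were ranked by the root mean square difference of their centred log2 values from the mean IGF2 profile, among 41077 candidates with 1 gene symbol. The closest 6 were PI15 (0.086), FLT1 (0.108), PAG1 (0.120), VPS53 (0.129), PTCD3 (0.133) and POC1A (0.146). PI15, which encodes a protease inhibitor, read 1407.7 and 1036.4 on the miR-483-5p arrays, 616.5 on the miR-483-3p array, and 505.5 and 485.0 on the control arrays. Its arrays thus took the order miR-483-5p, miR-483-3p, control that 202409_at had. Other probe sets of these genes had miR-483-5p minus control differences of -0.05 for PI15, 0.28 and 0.76 for PAG1, 0.01 for POC1A, -0.48 to 0.41 for VPS53, -0.20 to 0.58 for FLT1 and -0.20 to 0.19 for PTCD3. These likenesses are over 5 points and were picked as the closest of many.

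Whether the IGF2 difference passed the test depended on the processing. In 1 setting, chosen after seeing the data, in which each gene at or over the 40th percentile kept 1 probe set, the members were added and each array was centred on its median, the 3 IGF2 probe sets passed in limma. Their log2 differences were then 0.98, 1.55 and 1.16, with adjusted p-values of 0.0445, 0.00186 and 0.0185 (202409_at, 202410_x_at and 210881_s_at). With either step alone they did not pass. With 1 probe set per gene and no centring, the adjusted p-values were 0.282, 0.178 and 0.205. In the other setting chosen after seeing the data, all probe sets at or over the 40th percentile with arrays centred, they were 0.248, 0.130 and 0.174. That filter used the mean log2 value over all 5 arrays, by which 202410_x_at and 210881_s_at stood at 47.9 and 40.6 percent. On the miR-483-3p array they stood at 30.2 and 26.2 percent, and both were under 40 percent on the control arrays too. These 2 thus entered that other setting only through the miR-483-5p arrays, and their adjusted p-values after this filter are no support. In the setting that gave the calls, the members were added whatever their signal. As it was chosen after seeing the data, its calls, that of 202409_at included, are no independent support.

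**Figure D5:**
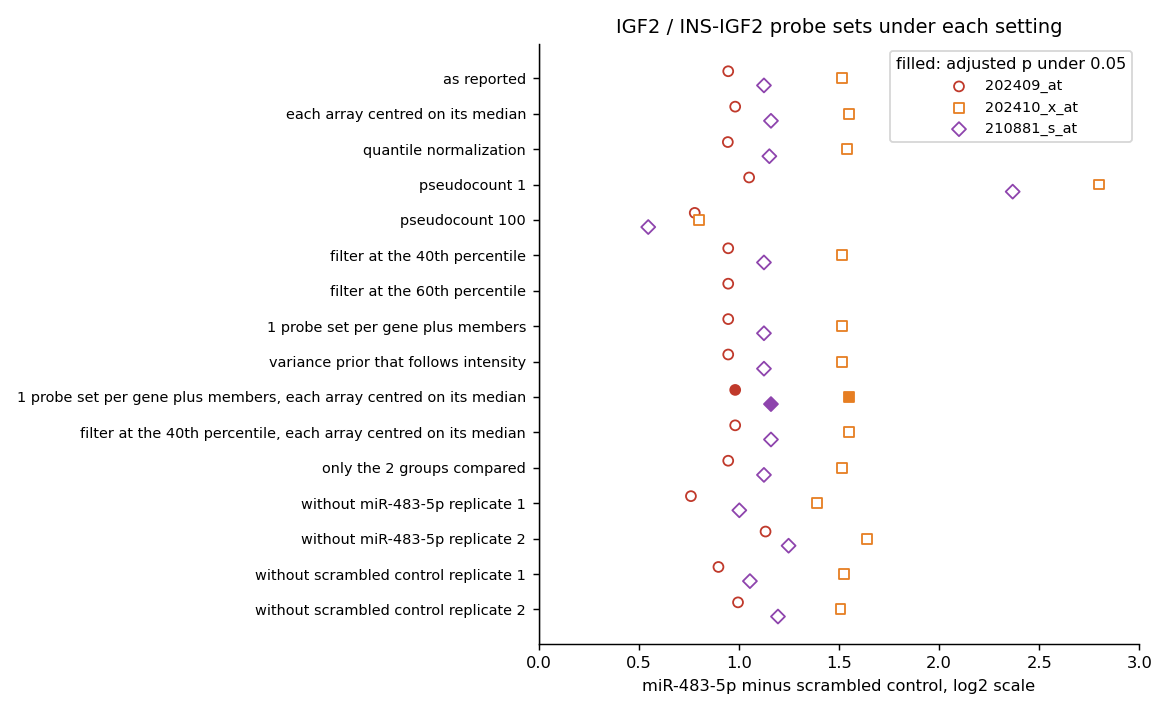
Log2 difference between miR-483-5p and scrambled control (horizontal) of the 3 IGF2 probe sets under each processing setting (rows), filled where the adjusted p was under 0.05. All values are above 0, from 0.55 to 2.80, and are filled only in the setting with 1 probe set per gene and arrays centred on their medians.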

How the data were processed

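MHH-ES-1 RNA was labelled as cRNA and hybridised to 5 Affymetrix HG-U133 Plus 2 chips, according to the protocols in the labels. The deposited values are linear intensity, 1 per probe set and array. The mean of every array, with 2% trimmed at each end, is 150, so the values had been scaled to a common target by the authors. GCOS and Partek, with no version, are the software in the submitters' processing notes. How signals were summarised is not stated in the sources used here. The number of arrays limits the precision.

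Groups came from the labels. The 62 control probe sets were left out, and the other 54613 were tested without a filter. Of these, 41091 have 1 gene symbol, 1801 several and 11721 none in the platform annotation, and 41037 matched RefSeq (GRCh38.p14, for names, gene order and sequences). Genes outside the members were named only from probe sets with 1 symbol, by the one with the highest mean. Values were log2(intensity + 32), fitted as group means over all 5 arrays (limma 3.58.1 in R 4.3.3, Benjamini-Hochberg, threshold 0.05, 2 residual degrees of freedom). The spread of each probe set was drawn towards that of all probe sets, with 2.503 prior degrees of freedom. The SEs, intervals and p-values thus rest partly on a borrowed spread. In each list, up to 4 genes with the lowest p for miR-483-5p against control were named. Members and lists were chosen with earlier results of these data known. Alternatives covered the pseudocount, normalization, filters, probe set choice, variance prior, groups fitted and single arrays left out.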

Additional observations from a re-analysis of the deposited data

How the results depend on the processing

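The IGF2 differences between miR-483-5p and control stayed positive under every setting tried, at 0.78 to 1.05 (202409_at), 0.80 to 2.80 (202410_x_at) and 0.55 to 2.37 (210881_s_at) as the pseudocount went between 100 and 1, and at 0.76 to 1.13, 1.39 to 1.64 and 1.002 to 1.25 as single arrays were left out. A filter at the 60th percentile removed the 2 dimmer ones, which passed that at the 40th only through the miR-483-5p arrays. Where 1 choice was changed at a time, their adjusted p-values in limma were 0.282 to 0.859, 0.178 to 0.859 and 0.205 to 0.859. Only the added setting with 1 probe set per gene, the members and arrays centred on their medians gave calls: 3 members and 42 probe sets in all for miR-483-5p against control, 2 in all for miR-483-3p against control, and 1 member (202410_x_at, 1.40) and 8 in all for miR-483-5p against miR-483-3p, with IGF2 differences of 0.98, 1.55 and 1.16. That setting tested 14606 probe sets. The other added setting, with 32768 probe sets at or over the 40th percentile and the same centring, called 0 in all for miR-483-5p against control. The cause was not tested.

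Some signs turned. For miR-483-3p against control, 216894_x_at became 0.016 with median centring and 0.0045 with quantile normalization, and 237249_at became 0.0080 with median centring. For miR-483-5p against miR-483-3p, 237249_at became 0.012 with quantile normalization. Leaving out single arrays turned the following, given as the range over these. For miR-483-5p against control they were 204486_at (-0.26 to 0.54), 204981_at (-0.012 to 0.15), 209803_s_at (-0.29 to 0.46), 213182_x_at (-0.54 to 0.24), 216894_x_at (-0.33 to 0.18), 219534_x_at (-0.39 to 0.18), 224646_x_at (-0.0053 to 0.30) and 237249_at (-0.077 to 0.0039). For miR-483-3p against control they were 204486_at (-0.77 to 0.031), 209802_at (-0.042 to 0.12), 209803_s_at (-0.47 to 0.28), 210881_s_at (-0.0095 to 0.13), 216894_x_at (-0.28 to 0.23), 224646_x_at (-0.025 to 0.28), 237249_at (-0.069 to 0.012) and 244727_at (-0.40 to 0.24). For miR-483-5p against miR-483-3p they were 209803_s_at (-0.046 to 0.41), 213182_x_at (-0.18 to 0.59), 224646_x_at (-0.012 to 0.051), 224997_x_at (-0.13 to 0.016) and 237249_at (-0.024 to 0.0078). With 2, 1 and 2 arrays the spread is poorly known, and dim signals carry no detection call. No paired analysis was possible because the labels give the groups no shared replicate numbers, arrays 1 and 2 being named by the order of deposit.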
